A study of Basiliscus vittatus and Chrysopelea ornata and Dasypeltis gansi with 10 samples.

Results

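Among the 630 orthologous genes measured here, 6 belong to axon guidance systems other than the semaphorins. They were picked by their protein names, with earlier results of these data known. They are the netrin receptors neogenin and netrin receptor UNC5A, roundabout homolog 3 of the Slit receptor family, the receptor tyrosine kinases ephrin type-A receptor 4 and ephrin type-B receptor 1, and spondin-1, a secreted matrix protein first described in the floor plate of the developing spinal cord. Growing axons are steered by secreted and membrane-bound cues that they read with receptors on the growth cone, and several of these receptors stay expressed in the adult brain, where they are known from work in mammals to act at synapses. The ligands of the receptors (netrins, Slits and ephrins) were not analysed here.

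RNA was sequenced from the cerebellum of adult animals of 10 squamate species, all labelled wild-type, with 1 expression value per gene and species. A group of 3 limbless species moves by lateral undulation across several habitats, namely Pseudopus apodus, a lizard without legs, and 2 snakes, Chrysopelea ornata and Pantherophis guttatus. The other limbless species were the snakes Dasypeltis gansi and Python regius, which use other movements, and the snake Eryx colubrinus, a facultative burrower that itself moves by slow lateral undulation. Quadrupedal species were the terrestrial lizards Pogona vitticeps and Lepidothyris fernandi (named Mochlus fernandi in the sample records), the arboreal Trioceros jacksonii and the facultatively bipedal Basiliscus vittatus. Limb category (6 limbless, 4 quadrupedal) and lineage (5 snakes, 5 lizards) differ only in P. apodus, so the contrasts of these 2 groupings share most of their species.

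Values are FPKM, sequenced fragments divided by the length of the transcript and by the number of mapped reads of the library, so that levels of different genes in 1 library can be set side by side. The spread within a species is unknown, because each species has a single value, so each test below measures a difference against the spread between species. The tests treat species as independent, although they share ancestry, so the p-values may be too small. In whole tissue, fewer cells of a type and less RNA per cell cannot be told apart. The sums of all 630 values ran from 8328 to 15880 FPKM in limbless species and from 6289 to 13383 FPKM in quadrupedal species, and the median gene lay 0.35 higher in limbless than in quadrupedal species on the log2(FPKM + 1) scale. Differences are therefore also given after each species was centred to the same median. The table holds 9 cell type markers, for Purkinje cells, granule cells, astroglia and the oligodendrocyte lineage. No value of the 630 genes was 0 (lowest 0.2 FPKM). A marker above 0 therefore does not show that its cell type was present. The lowest marker values were 0.5 FPKM for voltage-dependent T-type calcium channel subunit alpha-1G in B. vittatus and 0.51 FPKM for fibroblast growth factor receptor 3 in P. apodus. The former is among 30 values at exactly 0.5 FPKM, which is also the expression threshold that the paper's methods give for keeping orthologs. Inositol 1,4,5-trisphosphate receptor type 1, abundant in mammalian Purkinje cells, was at 1.38 FPKM in P. apodus.

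All 6 guidance genes were above 1 FPKM in every species, and they differed widely in how variable they were. Spondin-1 stood at rank 20 of 630 genes by its SD over the 10 species on the log2 scale (1.69), roundabout homolog 3 at rank 35 (1.54) and netrin receptor UNC5A at rank 60 (1.42). Neogenin was at rank 504 with an SD of 0.70, against a median SD of 0.94 over all genes, but after centring it was nearer the middle, at rank 357 with an SD of 0.79 against a median of 0.83. The highest species exceeded the lowest by 64.8-fold for roundabout homolog 3, 32.7-fold for netrin receptor UNC5A, 25.9-fold for spondin-1, 14.2-fold for ephrin type-B receptor 1, 10.7-fold for ephrin type-A receptor 4 and 5.18-fold for neogenin, against a median of 10.3-fold over all genes.

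**Figure D1:**
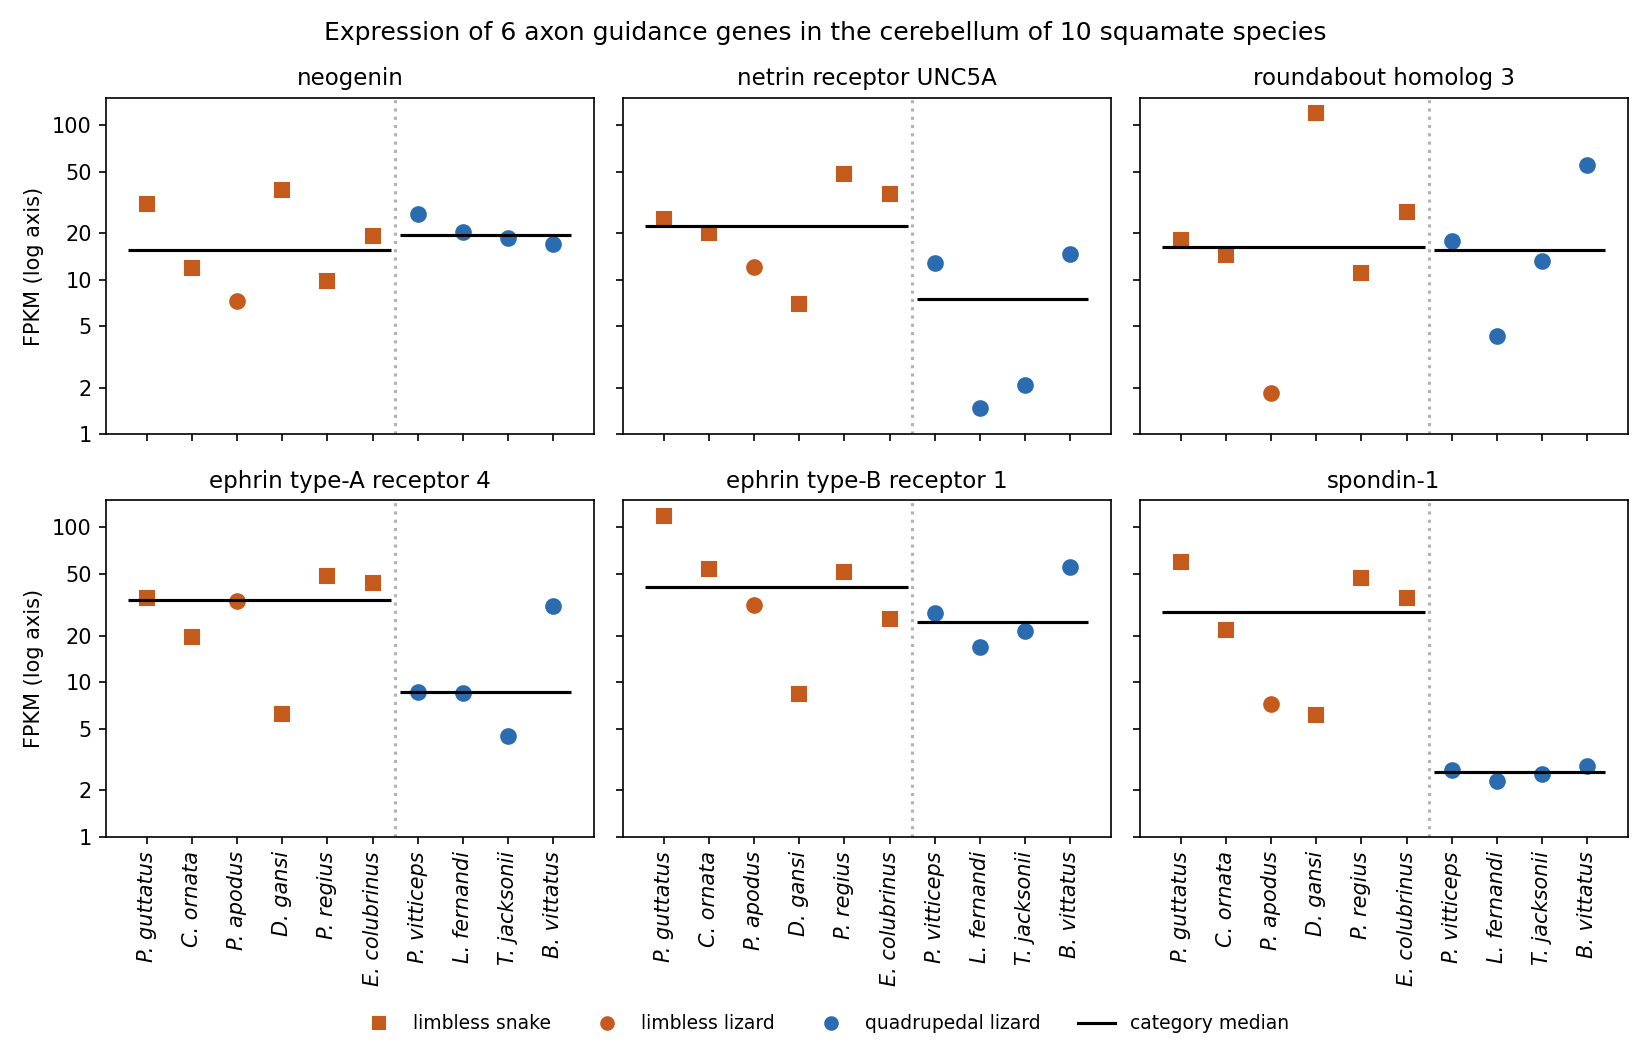
Level of each guidance gene in the cerebellum of each species, in FPKM on a log axis. Each point is 1 species, squares are snakes, circles are lizards, orange marks limbless and blue quadrupedal species, and black lines are the category medians. Spondin-1 is the only one of the 6 genes whose limbless species (6.11 to 59.62 FPKM) all lie above the quadrupedal species (2.3 to 2.86 FPKM).

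Limbless and quadrupedal species were compared to ask whether guidance genes follow the loss of limbs. With limma and Benjamini-Hochberg adjustment over all genes, 0 of the 6 and 0 of the 630 genes passed the threshold of 0.05 (0%). At an unadjusted p under 0.05, spondin-1 and netrin receptor UNC5A, 2 of the 6, were higher in limbless species and 0 were lower, against 8.25% of all genes higher and 1.59% lower. The exact permutation test over species called 0 genes after adjustment and 55 at an unadjusted p under 0.05, where limma had 62, and of the 6 genes these 55 held only spondin-1, since UNC5A had an exact p of 0.0619. The split of those 62 genes, 52 higher and 10 lower, was 37 higher and 28 lower after centring. Of the 6 genes, 5 had a positive difference, against 71% of all genes, and after centring 4 did, against 51.3%.

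Neogenin, a receptor for netrins and for repulsive guidance molecules, had its lowest limbless level at 7.33, its median at 15.6 and its highest at 38 FPKM, while the quadrupedal species had 26.68 FPKM in P. vitticeps, 20.48 in L. fernandi, 18.6 in T. jacksonii and 17.14 in B. vittatus. The quadrupedal values fell inside the limbless range and spanned 1.56-fold, whereas the limbless values spanned 5.18-fold. After centring, the quadrupedal values no longer all fell inside the limbless range, since L. fernandi was above every limbless species. Quadrupedal levels then ran from 3.92 to 5.46 and limbless levels from 2.93 to 5.33 on the log2 scale. The quadrupedal span was still the narrower, but the spans were closer. The means were 19.6 ± 12.5 FPKM in limbless species (SD, n = 6) and 20.7 ± 4.20 FPKM in quadrupedal species (SD, n = 4). On the log2(FPKM + 1) scale the difference was -0.29 (SE 0.54, 95% interval -1.41 to 0.84), with an adjusted p of 0.862 from limma.

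Netrin receptor UNC5A, which mediates repulsion from netrin-1, had a lowest level of 6.93, a median of 22.4 and a highest level of 48.36 FPKM in limbless species. In quadrupedal species it was at 14.77 FPKM in B. vittatus, 12.86 FPKM in P. vitticeps, 2.09 FPKM in T. jacksonii and 1.48 FPKM in L. fernandi. Limbless species thus had the higher median, by 3.00-fold, but the groups overlapped, since P. apodus (12.14 FPKM) and D. gansi (6.93 FPKM) lay below the highest quadrupedal species. The means were 24.7 ± 15.4 FPKM in limbless species (SD, n = 6) and 7.80 ± 6.99 FPKM in quadrupedal species (SD, n = 4). The log2 difference of 1.76 (SE 0.66, 95% interval 0.38 to 3.14) had an unadjusted p of 0.0155 and an adjusted p of 0.284 in limma. After centring it was 1.42, with an adjusted p of 0.410.

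Both netrin receptors were measured in the same libraries, so their ratio does not depend on library scale. UNC5A was above neogenin in 4 of 6 limbless species, where the UNC5A/neogenin ratio was 4.90 in P. regius, 1.88 in E. colubrinus, 1.69 in C. ornata and 1.66 in P. apodus. The ratio was 0.793 in P. guttatus and 0.182 in D. gansi. Neogenin was the higher of both in all 4 quadrupedal species, with ratios from 0.0723 in L. fernandi to 0.862 in B. vittatus. The 2 categories overlapped through P. guttatus and D. gansi.

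**Figure D2:**
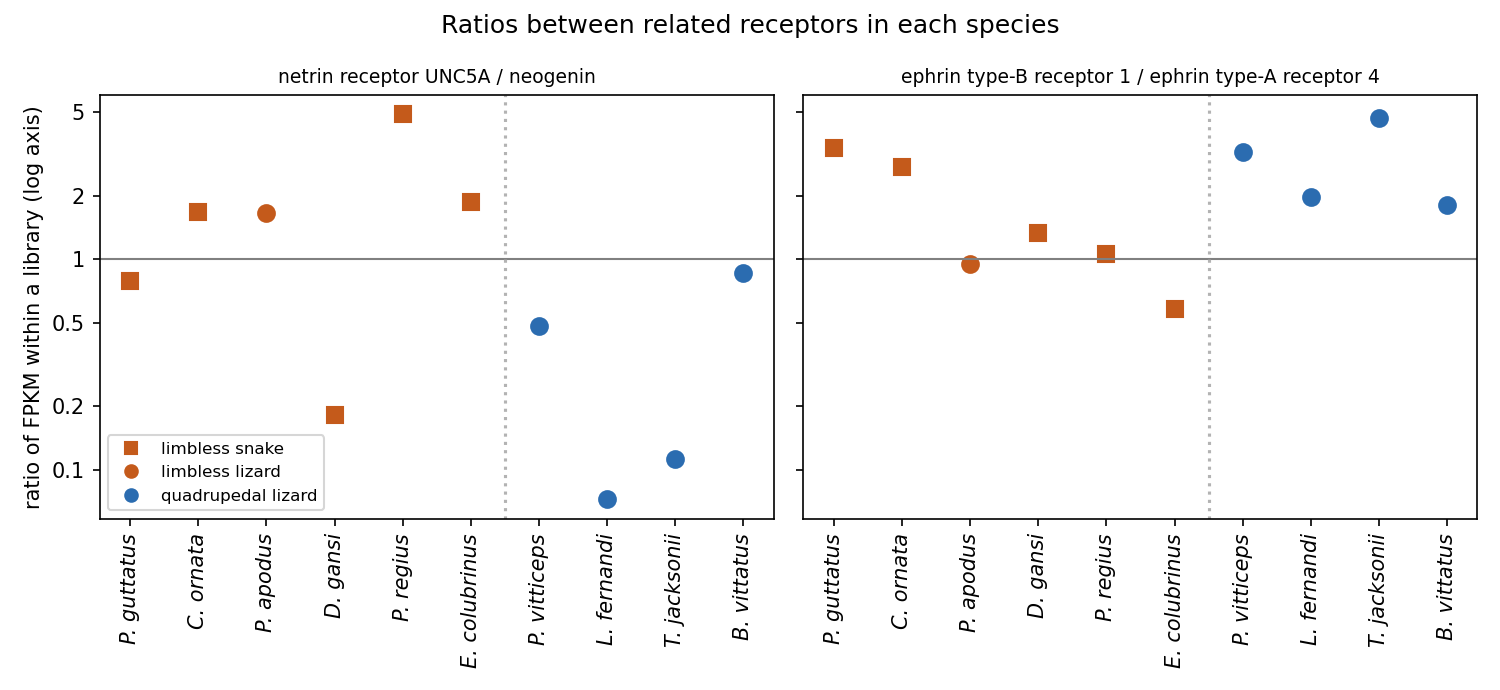
Ratio of netrin receptor UNC5A to neogenin (left) and of ephrin type-B receptor 1 to ephrin type-A receptor 4 (right) within each library, on a log axis with a line at 1; each point is 1 species, with squares for snakes and circles for lizards. UNC5A exceeded neogenin in 4 of 6 limbless and 0 of 4 quadrupedal species, and ephrin type-B receptor 1 exceeded ephrin type-A receptor 4 in 4 of 6 limbless and 4 of 4 quadrupedal species.

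Roundabout homolog 3, which in mice is required for commissural axons of the hindbrain and spinal cord to cross the midline, had a lowest limbless level of 1.85, a median of 16.3 and a highest level of 119.91 FPKM. Quadrupedal levels were 55.49 FPKM in B. vittatus, 17.75 FPKM in P. vitticeps, 13.32 FPKM in T. jacksonii and 4.36 FPKM in L. fernandi. The limbless range enclosed the quadrupedal one at both ends, with P. apodus lowest and D. gansi highest of all species. Means were 32.2 ± 43.8 FPKM in limbless species (SD, n = 6) and 22.7 ± 22.5 FPKM in quadrupedal species (SD, n = 4). The log2 difference was 0.10 (SE 0.82, 95% interval -1.63 to 1.83) with an adjusted limma p of 0.974, and centring turned its sign, to -0.24.

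Ephrin type-A receptor 4 binds ephrins of both classes and is known for the hopping gait of mice that lack it. In limbless species its lowest level was 6.25, its median 34.2 and its highest 48.29 FPKM. Quadrupedal species had 30.89 FPKM in B. vittatus, 8.59 in P. vitticeps, 8.55 in L. fernandi and 4.51 in T. jacksonii. The limbless median was 3.99 times the quadrupedal one, and the groups overlapped, since B. vittatus exceeded C. ornata (19.5 FPKM) and all quadrupedal species but T. jacksonii exceeded D. gansi (6.25 FPKM). Averages were 31.0 ± 15.6 FPKM in limbless species (SD, n = 6) and 13.1 ± 11.99 FPKM in quadrupedal species (SD, n = 4). The log2 difference was 1.27 (SE 0.63, 95% interval -0.04 to 2.59; 0.93 after centring), with an adjusted p of 0.548 in limma.

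Ephrin type-B receptor 1, which guides retinal axons at the optic chiasm of mice, was the most abundant of the 6 genes, with a mean over species at percentile 91.9 of all genes. Its limbless levels had a lowest value of 8.35, a median of 41.4 and a highest value of 118.8 FPKM. Quadrupedal levels were 55.75 FPKM in B. vittatus, 27.9 FPKM in P. vitticeps, 21.32 FPKM in T. jacksonii and 16.95 FPKM in L. fernandi, all within the limbless range. The means of 48.2 ± 38.5 FPKM in limbless species (SD, n = 6) and 30.5 ± 17.4 FPKM in quadrupedal species (SD, n = 4) gave a log2 difference of 0.40 (SE 0.63, 95% interval -0.94 to 1.73). Its adjusted limma p was 0.826, and the difference was 0.05 after centring.

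Both Eph receptors stood in different proportions across species. Ephrin type-B receptor 1 was 3.38 times ephrin type-A receptor 4 in P. guttatus, 2.76 times in C. ornata, 1.34 times in D. gansi and 1.06 times in P. regius. It was below ephrin type-A receptor 4 in P. apodus (0.947 times) and E. colubrinus (0.583 times). In the quadrupedal species the ratio was 4.73 in T. jacksonii, 3.25 in P. vitticeps, 1.98 in L. fernandi and 1.80 in B. vittatus, so every quadrupedal species expressed more of the B-class receptor while the limbless species were on both sides of 1.

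Spondin-1, a thrombospondin-repeat protein that promotes outgrowth of commissural axons in rodent embryos, showed the widest gap between the limb categories. Limbless species had a lowest level of 6.11 in D. gansi, a median of 28.5 and a highest level of 59.62 FPKM in P. guttatus. Quadrupedal species had 2.86 FPKM in B. vittatus, 2.7 FPKM in P. vitticeps, 2.55 FPKM in T. jacksonii and 2.3 FPKM in L. fernandi. The groups did not overlap, as in 2.7% of all genes with limbless species higher and 0.317% with them lower, and the quadrupedal values spanned 1.24-fold against 9.76-fold in limbless species. The closeness of the quadrupedal values depended on the scale, since after centring they ran from 1.46 to 2.76 in log2 units, against 2.87 to 5.44 in limbless species. After centring, when 1.9% of all genes had all limbless species higher and 0.952% had them all lower, spondin-1 still showed no overlap, but the gap was narrower, with D. gansi at 2.87 as the lowest limbless species and L. fernandi at 2.76 as the highest quadrupedal one on the centred log2 scale.

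The means of spondin-1 were 29.5 ± 21.7 FPKM in limbless species (SD, n = 6) and 2.60 ± 0.238 FPKM in quadrupedal species (SD, n = 4), and the medians differed 10.9-fold. The log2 difference was 2.67 (SE 0.62, 95% interval 1.36 to 3.98), at rank 3 of 630 genes by p. It did not pass the threshold, with an unadjusted p of 0.000442 and an adjusted p of 0.0928 in limma, and 2.32 (SE 0.52) with an adjusted p of 0.0645 after centring. By the two-sided exact permutation test over species the unadjusted p was 0.00952 and the adjusted p 0.316. With each species left out in turn the adjusted limma p ran from 0.0170 to 0.252, and it was under 0.05 only without D. gansi, the lowest limbless species, when the difference was 3.00. It was highest without E. colubrinus. The sums of the markers for Purkinje cells (23.71 to 192.63 FPKM in limbless species, 51.82 to 105.37 FPKM in quadrupedal species), astroglia (17.49 to 78.67 FPKM in limbless species, 44.88 to 131.16 FPKM in quadrupedal species) and the oligodendrocyte lineage (6.49 to 71.28 FPKM in limbless species, 8.82 to 63.55 FPKM in quadrupedal species) overlapped between the categories. Reelin, the one granule cell marker, was at 26.75 to 320.93 FPKM in limbless species and 54.01 to 147.45 FPKM in quadrupedal species, and the part of cell composition in the spondin-1 difference was not tested.

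**Figure D3:**
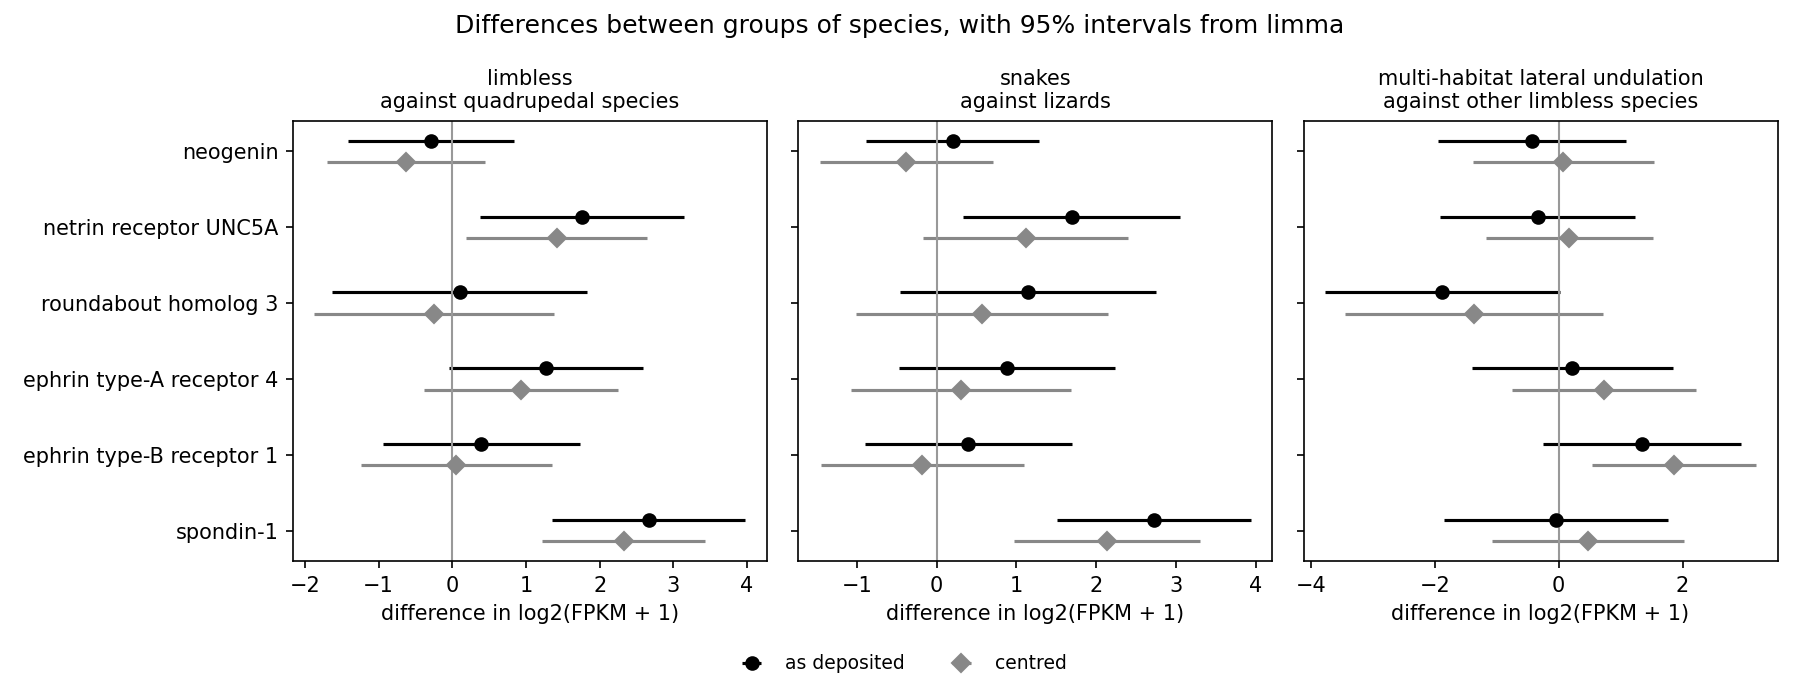
Difference of each guidance gene between groups of species on the log2(FPKM + 1) scale, with 95% intervals from limma; black circles are values as deposited, grey diamonds values after each species was centred to the same median, and a positive value means higher in the group named first. Spondin-1 had the largest differences of the 6 genes in the first 2 comparisons (2.67 and 2.72), and its interval in the third spanned 0.

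The comparison of snakes with lizards moves P. apodus to the other side and asks whether the levels follow lineage. In limma 0 of the 6 and 0 of the 630 genes passed (0%), with 85 genes at an unadjusted p under 0.05, and the exact permutation test called 0 after adjustment and 80 before it. Spondin-1 and netrin receptor UNC5A were again the 2 genes under an unadjusted p of 0.05, both higher in snakes, against 13.3% of all genes higher and 0.159% lower. UNC5A was no longer among them after centring (unadjusted limma p 0.0844) or in the exact permutation test (unadjusted p 0.0714). All genes together were shifted, the median by 0.56 on the log2 scale, and after centring 23 genes were higher and 26 lower at this unadjusted p. All 6 guidance genes had a positive difference, against 80.8% of all genes, and 4 did after centring, against 48.9%. None of the 6 was without overlap between snakes and lizards, as were 1.9% of all genes with snakes higher and 0% with snakes lower.

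Spondin-1 was at 59.62 FPKM in P. guttatus, 47.21 in P. regius, 35.14 in E. colubrinus, 21.86 in C. ornata and 6.11 in D. gansi, while among lizards it was at 7.24 FPKM in P. apodus and at most 2.86 in the other 4. One lizard, the legless P. apodus, lay above one snake, D. gansi, and otherwise all snakes were higher. The log2 difference between snakes (34.0 ± 21.0 FPKM, SD, n = 5) and lizards (3.53 ± 2.08 FPKM, SD, n = 5) was 2.72 (SE 0.58, 95% interval 1.51 to 3.94), and its unadjusted p was the smallest of the 630 genes. Its adjusted p in limma was 0.0800 and, after centring, 0.520 with a difference of 2.14. With each species left out the adjusted limma p ran from 0.00521 to 0.267, and it was under 0.05 only without D. gansi, when the difference was 3.22.

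Netrin receptor UNC5A was at 48.36 FPKM in P. regius, 35.98 in E. colubrinus, 24.7 in P. guttatus, 20.14 in C. ornata and 6.93 in D. gansi. Of the snakes only D. gansi reached into the lizard range of 1.48 to 14.77 FPKM. After centring P. guttatus did too, at 4.21 in log2 units, below the highest lizard, P. apodus, at 4.35. Snakes averaged 27.2 ± 15.7 FPKM (SD, n = 5) and lizards 8.67 ± 6.36 FPKM (SD, n = 5), a log2 difference of 1.70 (SE 0.65, 95% interval 0.34 to 3.06) with an adjusted limma p of 0.290, and of 1.12 after centring. The other 4 genes had log2 differences of 1.15 (SE 0.76, roundabout homolog 3), 0.88 (SE 0.64, ephrin type-A receptor 4), 0.40 (SE 0.62, ephrin type-B receptor 1) and 0.20 (SE 0.52, neogenin), with adjusted limma p of 0.486 to 0.841. Centring turned the sign of the last 2, to -0.18 for ephrin type-B receptor 1 and -0.38 for neogenin.

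P. apodus, which is limbless but no snake, did not fall on the same side for all genes. Its ephrin type-A receptor 4 level, 33.19 FPKM, was above all 4 quadrupedal lizards (4.51 to 30.89 FPKM) and inside the snake range (6.25 to 48.29 FPKM). After centring that level was the highest of all 10 species, at 5.73 in log2 units, as were 13.3% of all genes in P. apodus. The quadrupedal B. vittatus came next at 5.14, above P. regius, the highest snake, at 5.11. Spondin-1, at 7.24 FPKM, was above all 4 quadrupedal lizards (2.3 to 2.86 FPKM) and above 1 of 5 snakes. Roundabout homolog 3 at 1.85 FPKM and neogenin at 7.33 FPKM were the lowest of all 10 species, as were 21.4% of all genes in P. apodus. After centring, neogenin in P. apodus (3.69) was above that in P. regius (2.93) and E. colubrinus (3.63) in log2 units. P. apodus had a low library scale (median gene 7.27 FPKM), and after centring it was 1.32 above the mean of snakes and 2.03 above that of quadrupedal lizards for ephrin type-A receptor 4, while for roundabout homolog 3 its differences from these means were -2.28 and -2.14, each in log2 units and without a test, since P. apodus is 1 species.

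**Figure D4:**
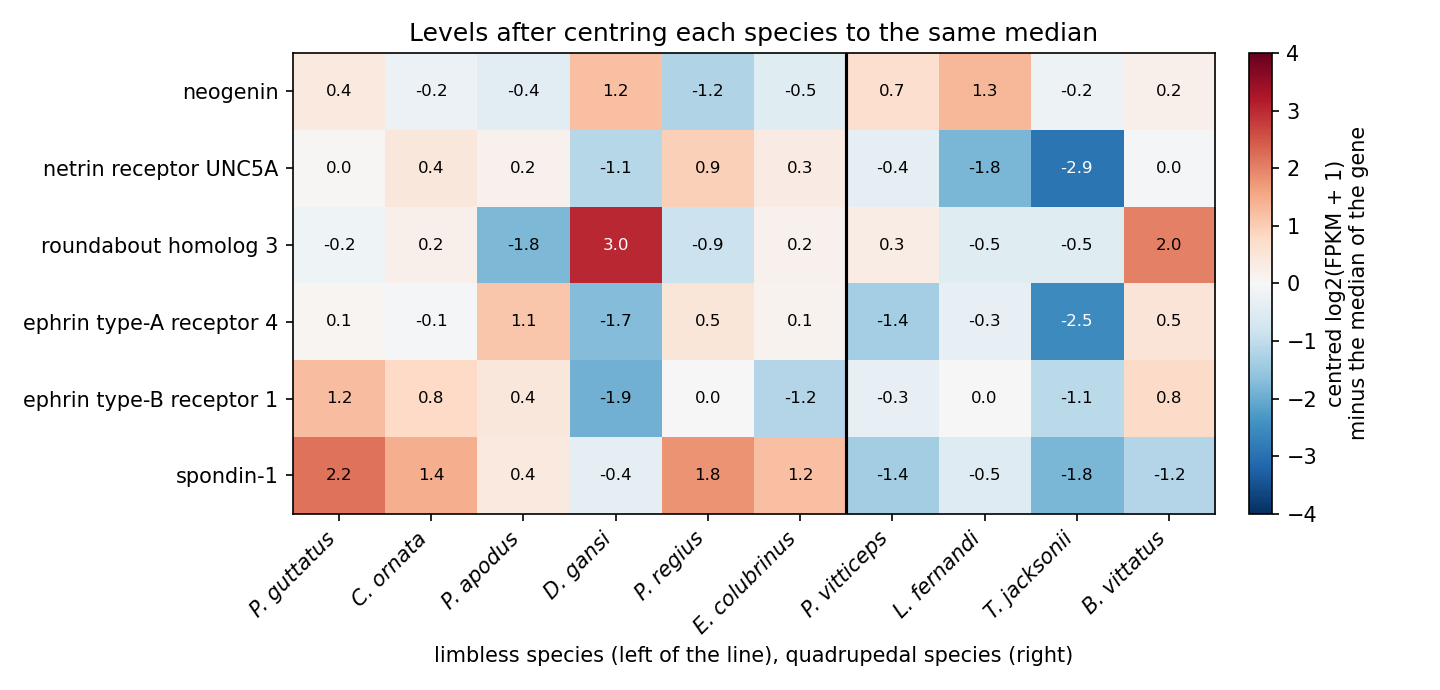
Level of each guidance gene (rows) in each species (columns) on the log2(FPKM + 1) scale after centring species to the same median, shown as the difference from the median of the gene, with limbless species left of the line. Subtracting the median puts as many species above 0 as below it in every row. In the spondin-1 row those above 0 are 5 of 6 limbless species, and all 4 quadrupedal species are below 0. D. gansi has the highest roundabout homolog 3 value.

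Among limbless animals, the 3 species of the multi-habitat lateral undulation mode, called the lateral undulation mode here, were set against the other 3 limbless species. These are D. gansi, P. regius and the burrower E. colubrinus, which also undulates, though slowly, so the contrast is between locomotor modes and does not separate undulation from its absence. Limma called 0 of the 6 and 0 of the 630 genes (0%), with 104 genes at an unadjusted p under 0.05, 1.27% of all genes higher and 15.2% lower in the lateral undulation mode. None of these 104 was a guidance gene. Of the 6 genes, 2 had a positive difference, against 29% of all genes, and 5 did after centring, against 52.2%. In FPKM none of the 6 was without overlap, as were 1.27% of all genes with the lateral undulation mode higher and 17.5% with it lower. The exact permutation test cannot go below an unadjusted p of 0.1 with 3 against 3 species and called 0 genes. All genes together were shifted by -0.48 on the log2 scale, and centring changed the split at an unadjusted p under 0.05 to 30 higher and 51 lower. Of the 6 guidance genes, only ephrin type-B receptor 1 was then among them, on the higher side (unadjusted limma p 0.0107).

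Ephrin type-B receptor 1 was higher in P. guttatus (118.8 FPKM), C. ornata (53.91 FPKM) and P. apodus (31.42 FPKM) than in D. gansi (8.35 FPKM) and E. colubrinus (25.44 FPKM), but P. regius, with 51.37 FPKM, lay within the range of the lateral undulation mode. The means were 68.0 ± 45.4 FPKM in the lateral undulation mode (SD, n = 3) and 28.4 ± 21.7 FPKM in the other limbless species (SD, n = 3). The log2 difference was 1.35 (SE 0.75, 95% interval -0.25 to 2.95), with an adjusted p of 0.403 in limma. After centring the groups no longer overlapped, as in 8.57% of all genes with the lateral undulation mode higher and 9.52% with it lower, and the difference was 1.86 (SE 0.60, 95% interval 0.53 to 3.19), with an adjusted p of 0.275. Its uncentred difference was 0.68 without D. gansi and 1.43 without E. colubrinus.

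Roundabout homolog 3 pointed the other way, at 18.01 FPKM in P. guttatus, 14.49 in C. ornata and 1.85 in P. apodus, against 119.91 in D. gansi, 27.59 in E. colubrinus and 11.06 in P. regius. Again P. regius lay inside the range of the lateral undulation mode. The log2 difference was -1.88 (SE 0.89, 95% interval -3.77 to 0.01), with an adjusted limma p of 0.303, and -1.37 after centring. Without D. gansi the difference was -0.98, and without E. colubrinus it was -2.02. For spondin-1 the groups had almost the same mean, 29.6 ± 27.0 FPKM in the lateral undulation mode and 29.5 ± 21.1 FPKM in the other limbless species (SD, n = 3 each), with a log2 difference of -0.04 (SE 0.85, 95% interval -1.85 to 1.77). The remaining differences were 0.22 (SE 0.76) for ephrin type-A receptor 4, -0.34 (SE 0.74) for netrin receptor UNC5A and -0.43 (SE 0.71) for neogenin, with adjusted limma p of 0.822 to 0.928.

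Across the 6 locomotor modes, limma's F test called 0 of the 630 genes (0%), with 66 (10.5%) at an unadjusted p under 0.05. Spondin-1 was the one guidance gene among these 66, with an unadjusted p of 0.0411 and an adjusted p of 0.455. The other 5 had adjusted p from 0.571 for netrin receptor UNC5A to 0.990 for neogenin. Species of the same mode could differ more than species of different modes. D. gansi and P. regius, grouped under other movements, had 119.91 and 11.06 FPKM of roundabout homolog 3, 38 and 9.87 FPKM of neogenin, 6.93 and 48.36 FPKM of netrin receptor UNC5A, and 6.25 and 48.29 FPKM of ephrin type-A receptor 4. Both terrestrial lizards, by contrast, had similar FPKM of ephrin type-A receptor 4, at 8.59 in P. vitticeps and 8.55 in L. fernandi, although after centring these were 3.27 and 4.29 in log2 units, and were apart in netrin receptor UNC5A, at 12.86 and 1.48 FPKM. The arboreal, bipedal and burrowing modes hold a single species each, so no neighbouring modes in the order of levels could be set apart beyond a spread of their own.

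D. gansi, an egg-eating snake, was at an end of the limbless range for all 6 genes. It had the highest neogenin and roundabout homolog 3 and the lowest netrin receptor UNC5A, ephrin type-A receptor 4, ephrin type-B receptor 1 and spondin-1, whereas it was highest of the limbless species for 20.2% and lowest for 17.0% of all genes. Those positions held for the same numbers of guidance genes after centring, 2 highest and 4 lowest, against 27.8% and 17.8% of all genes. The same library had the highest reelin (320.93 FPKM) and the highest inositol 1,4,5-trisphosphate receptor type 1 (155.74 FPKM) of the 10 species, and the part of cell composition in these positions was not tested. B. vittatus, the facultative biped, was the highest quadrupedal species for 5 of the 6 genes, against 21.4% of all genes. It was the lowest for neogenin, against 20.2% of all genes. After centring B. vittatus was the highest for 4 of the 6, against 23.8%, and the lowest for 0, against 26.5%. L. fernandi was the lowest quadrupedal species for 4 of the 6, against 55.7% of all genes, and after centring for 1, against 14.1%. T. jacksonii was the lowest for 1, against 9.84%, and after centring for 5, against 32.2%.

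Similarity of pattern was described by Pearson's r and Spearman's coefficient of centred levels over the 10 species, which share ancestry and a common scaling, so no p is given. Netrin receptor UNC5A and ephrin type-A receptor 4 were by r the closest of the 15 pairs of guidance genes (r = 0.78, Spearman 0.68). Over the 8 species left without the 2 farthest from the median of UNC5A, r was 0.76. UNC5A and spondin-1 followed (r = 0.72, Spearman 0.78, and r = 0.63 over the same 8 species). The pair of Eph receptors had an r of 0.66, which was 0.56 without D. gansi. Without the 2 species farthest from the median of ephrin type-A receptor 4, it was 0.28 over 8 species. Both netrin receptors ran in opposite directions after centring (r = -0.52, Spearman -0.77). Before centring this was weaker, with an r of -0.26 and a Spearman coefficient of -0.25 on the log2 scale. Their centred r was -0.49 without D. gansi. Without the 2 species farthest from the median of neogenin, it was -0.28 over 8 species. Neogenin and roundabout homolog 3 had an r of 0.51, which was 0.27 without D. gansi. Over the 8 species left without the 2 farthest from the median of neogenin, it was 0.49.

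Of the other 629 genes, the one most like spondin-1 was cadherin-18, a neuronal cell adhesion molecule (r = 0.93), which was at 4.43 to 21.92 FPKM in limbless species and 0.5 to 2.73 FPKM in quadrupedal species. BRCA1-A complex subunit RAP80, a ubiquitin-binding protein of DNA repair, was next (r = 0.93), at 5.61 to 20.98 FPKM in limbless species and 1.32 to 2.31 FPKM in quadrupedal species. The third was xylosyltransferase 1, which starts the sugar chains of proteoglycans (r = 0.87), at 5.56 to 15.71 FPKM in limbless species and 2.09 to 4.31 FPKM in quadrupedal species. None of these 3 overlapped between the categories, and they were picked for their likeness to a gene that does not. In each of the 4 genes D. gansi and P. apodus were among the 3 lowest limbless species.

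**Figure D5:**
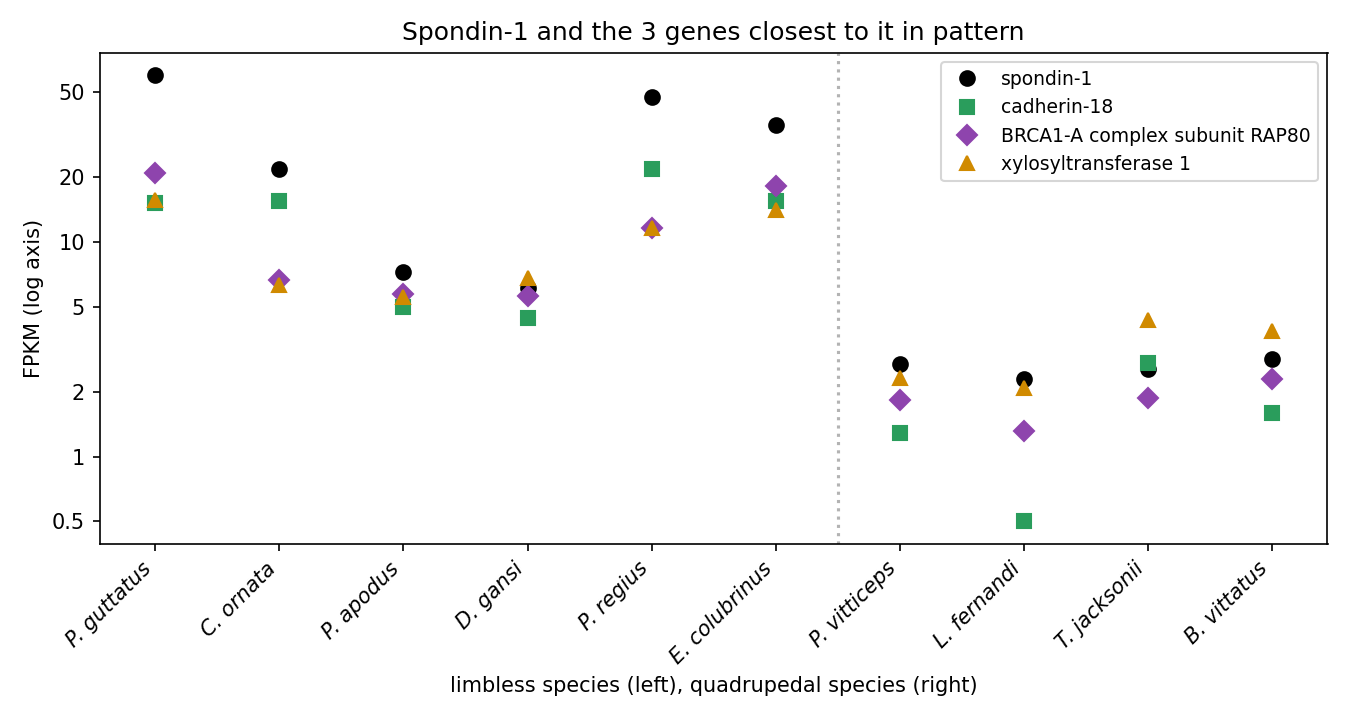
Levels of spondin-1 and of the 3 genes closest to it by Pearson's r over 10 species, in FPKM on a log axis, with limbless species left of the dotted line. All 4 genes are higher in every limbless species than in any quadrupedal species, with spondin-1 reaching 59.62 FPKM in P. guttatus.

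The closest genes to the receptors were ankyrin-3, an organiser of the axon initial segment, for neogenin (r = 0.89), and tetraspanin-3 for netrin receptor UNC5A (r = 0.82). Microtubule cross-linking factor 1 was closest to roundabout homolog 3 (r = 0.91, Spearman 0.95, and 0.82 without D. gansi), with its own extremes in the same species, 1.36 FPKM in P. apodus and 75.93 FPKM in D. gansi. For ephrin type-A receptor 4 it was rap guanine nucleotide exchange factor 2 (r = 0.82), and for ephrin type-B receptor 1 solute carrier family 12 member 2, a sodium, potassium and chloride cotransporter (r = 0.86). Netrin receptor UNC5A and ephrin type-A receptor 4 were each in the third place of the other's list. Without D. gansi, ankyrin-3 and tetraspanin-3 kept place 1. Solute carrier family 12 member 2 was then in place 3, microtubule cross-linking factor 1 in place 4 and rap guanine nucleotide exchange factor 2 in place 8. Ephrin type-A receptor 4 was in place 5 for UNC5A, and UNC5A in place 9 for ephrin type-A receptor 4.

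Semaphorins and plexins are the ligands and receptors of a further guidance system. Of the 8 measured, 5 were higher and 3 lower in limbless than in quadrupedal species, beside 71% of all genes higher. After centring 5 were higher, beside 51.3% of all genes. In either direction 0 passed the limma threshold. The median log2 difference was 0.75 (0.41 after centring), against 0.35 (0.013 after centring) over all genes. The 6 guidance genes described above had a median of 0.83 (0.49 after centring). Semaphorin-6A, a transmembrane guidance cue, averaged 56.0 ± 25.7 FPKM in limbless species (SD, n = 6) and 21.7 ± 14.6 FPKM in quadrupedal species (SD, n = 4), with an adjusted limma p of 0.287. Plexin-A1, a semaphorin receptor, was at 4.02 ± 2.61 FPKM in limbless species and 9.27 ± 9.89 FPKM in quadrupedal species, with an adjusted p of 0.764.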

How the data were processed

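Cerebellum RNA of 10 squamate species was sequenced, and the deposited table holds 630 one-to-one orthologs. FPKM values were made by the authors, who per the paper's methods assembled reads with Trinity, predicted proteins with TransDecoder, removed ribosomal reads with SortMeRNA and inferred orthologs with OrthoFinder. Trimmomatic and RSEM are named in the processing notes of the submitters. The sources used here do not say how the sequencing duplicates were merged. Genes carry protein names, with no genome behind them. FPKM keep no read number, so the depth of single values is unknown and no counting interval is given. Annotation of de novo transcripts by protein name can mix paralogues, which was not tested.

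Species came from the labels, limb category, lineage and locomotor mode from the paper. Here log2(FPKM + 1) was fitted with limma 3.58.1 in R 4.3.3 without a filter, with Benjamini-Hochberg adjustment over all genes and a threshold of 0.05. This scale understates changes of low genes. Each fit held only the groups compared, and modes were tested over all 10 species. Each p-value measures spread over species, part of which may be technical. Alternatives were a pseudocount of 0.1, a mean of at least 5 FPKM, centring to the same median, quantile normalization, limma with a trend, 22 doubtful names left out, an exact permutation test and each species left out. Descriptions used Python 3.11.15, numpy 2.4.6, pandas 2.3.3 and matplotlib 3.10.9. Scripts were tested on simulated data.

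Named genes were the 6 guidance genes, for each the 3 genes of highest r in centred levels (the closest is given for receptors), and in each list the gene of smallest p in each direction between limb categories. These genes and all lists (semaphorins and plexins, axonal adhesion, secreted and matrix proteins, cell type markers) were chosen with earlier results of these data known. A further list of signalling genes is not reported here.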

Additional observations from a re-analysis of the deposited data

Results flagged for a closer look

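Of 24 groups of 4 to 6 species tested with Dixon's criterion over the 6 guidance genes, 1 had a value standing apart, and chance gives about 1 in 20. It was spondin-1 in the 5 lizards, where P. apodus, the legless lizard, had 7.24 FPKM, and its gap to the next lizard was 0.829 of the whole range on the log2(FPKM + 1) scale, above the critical value of 0.71. The other 4 lizards were at 2.3 to 2.86 FPKM. After centring, a scale added for this check after the data were seen, the share was 0.412 and P. apodus no longer stood apart, while D. gansi did among the 5 snakes for roundabout homolog 3 (highest, 0.722) and ephrin type-A receptor 4 (lowest, 0.753), 2 of the 24 groups.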

How the results depend on the processing

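Counts of genes past the limma threshold were 0 in all 4 comparisons under every setting that kept all species. Leaving out each species gave 0 to 4 genes for limbless against quadrupedal species (4, among them spondin-1, without D. gansi, 2 without T. jacksonii, 1 without B. vittatus), 0 to 2 for snakes against lizards (2, among them spondin-1, without D. gansi, 1 without B. vittatus, 1 without T. jacksonii), 0 to 1 for the lateral undulation mode against the other limbless species (1 without D. gansi) and 0 to 0 for modes. The cause was not tested. The adjusted p of spondin-1 ranged from 0.0170 to 0.316 for limb category and from 0.00521 to 0.541 for lineage.

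The differences whose sign turned lay between -0.43 and 0.40 in the main fit. Under centring and under quantile normalization, values turned to -0.24 and -0.29 for roundabout homolog 3 between limb categories, to -0.38 and -0.41 for neogenin and -0.18 and -0.065 for ephrin type-B receptor 1 between lineages, and to 0.077 and 0.21 for neogenin and 0.47 and 0.41 for spondin-1 between limbless modes, with 0.17 for netrin receptor UNC5A under centring alone. With each species left out, the differences ran from -0.45 to 0.68 for roundabout homolog 3 between limb categories, from -0.070 to 0.43 for neogenin and -0.0091 to 0.91 for ephrin type-B receptor 1 between lineages, and from -0.98 to 0.032 for neogenin, -1.15 to 0.17 for netrin receptor UNC5A, -0.68 to 0.71 for ephrin type-A receptor 4 and -0.89 to 0.69 for spondin-1 between limbless modes. For spondin-1 they ran from 2.38 to 3.00 between limb categories and from 2.44 to 3.22 between lineages. No paired analysis was possible because each species has 1 value and the labels give no replicate numbers. FPKM keep no depth, so limits from read number cannot be given.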

Other observations

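Genes that act beside the guidance receptors at the axon surface showed no common direction between limb categories. Among 8 genes of axonal adhesion, 4 were higher and 4 lower in limbless than in quadrupedal species, beside 71% of all genes higher. After centring 3 of the 8 were higher, beside 51.3% of all genes. In limma 0 passed the threshold, and the median log2 difference was 0.14 (-0.21 after centring). Neural cell adhesion molecule L1, which promotes axon growth and fasciculation, averaged 69.5 ± 25.3 FPKM in limbless species (SD, n = 6) and 44.8 ± 20.2 FPKM in quadrupedal species (SD, n = 4), with an adjusted limma p of 0.754. Neural cell adhesion molecule 2 averaged 27.1 ± 22.9 FPKM in limbless species and 75.3 ± 67.2 FPKM in quadrupedal species, with an adjusted p of 0.548. Between limbless species, 1 of the 8 was higher and 7 lower in the multi-habitat lateral undulation mode than in the other 3 species (of which E. colubrinus also undulates), with a median of -1.25 (-0.74 after centring), beside 183 higher and 447 lower of all 630 genes and a median of -0.48 (0.03 after centring).

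Among 7 secreted and matrix proteins, 3 were higher and 4 lower in limbless species, beside 71% of all genes higher. After centring 2 of the 7 were higher, beside 51.3% of all genes. In limma 0 passed, and the median log2 difference was -0.20 (-0.54 after centring). Laminin subunit alpha-5, a basement membrane protein, averaged 12.7 ± 8.40 FPKM in limbless species and 6.50 ± 4.06 FPKM in quadrupedal species (adjusted limma p 0.764). Reelin, which directs the layering of neurons, averaged 84.5 ± 116 FPKM in limbless species and 94.7 ± 42.8 FPKM in quadrupedal species (adjusted limma p 0.764).

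Of the cell type markers, 0 were past the threshold in limma, as were 0 of all 630 genes (0%). Limbless minus quadrupedal median log2 differences were 0.81 for the 3 Purkinje cell markers (2 higher, 1 lower), -0.14 for the 3 astroglial markers (1 higher, 2 lower), -0.55 for the 2 oligodendrocyte markers (both lower) and -0.74 for reelin. After centring these differences were 0.47 for Purkinje cell markers, -0.49 for astroglial markers, -0.89 for oligodendrocyte markers and -1.08 for reelin. Of the astroglial and oligodendrocyte markers, 0 were then higher in limbless species, beside 51.3% of all genes. Before centring 71% of all genes were higher. Electrogenic sodium bicarbonate cotransporter 1, the astroglial marker of smallest p, averaged 24.5 ± 19.0 FPKM in limbless species and 60.6 ± 27.5 FPKM in quadrupedal species (adjusted limma p 0.367). The value of 0.5 FPKM for cadherin-18 in L. fernandi is also among the 30 values at exactly 0.5, none of which belongs to the 6 guidance genes.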
